A study of Mus musculus with 2 samples.

Results

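Small leucine-rich proteoglycans are secreted matrix proteins built on a short core of leucine-rich repeats, and 10 of their genes, *Dcn*, *Lum*, *Bgn*, *Fmod*, *Ogn*, *Omd*, *Prelp*, *Aspn*, *Podn* and *Ecm2*, were followed here through every cell class of injured mouse muscle. They were taken by gene symbol from the 32287 features of the count matrices, and each symbol occurred in both libraries. The 2 single-cell libraries came from muscle collected 7 dpi (days post injury) after bilateral peroneal nerve injury. One group received a goat anti-mouse IgG as control antibody and the other a SPP1 neutralizing antibody (SPP1-nAb), which binds the secreted protein osteopontin. Each injection held 2 µg in 10 µL and was repeated every 2 days, and the mice were 10–16 weeks old males. The labels give the strain as C57BL/6J in both groups, whereas the study's methods describe mice carrying a GFP transgene driven by the *S100B* promoter. The labels' protocol names tibialis anterior and gastrocnemius muscle, and the methods the tibialis anterior. The sample titles name GFP-positive cells, whereas the protocol describes sorting live cells with and without GFP, and most cells in both libraries belonged to classes that are not glia. Tissue of several mice was pooled in each library and the number is not given in the sources used here. Each group is therefore 1 library with no replicate, and no test between the antibodies was possible. Every interval below is a 95% interval for counting error alone, and a difference between the antibodies cannot be told apart from a difference between the libraries.

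Members of this family bind collagen fibrils and set their diameter and spacing, and several also bind growth factors of the TGF-β family or signal through innate immune receptors. Decorin and biglycan carry chondroitin or dermatan sulfate chains, whereas fibromodulin, lumican and osteoglycin (mimecan) can carry keratan sulfate. In skeletal muscle and tendon they are made mainly by connective tissue cells, which in muscle include the fibro-adipogenic progenitors, and fibromodulin is best known from tendon. After nerve injury these stromal cells surround both the muscle fibers and the nerve branches along which Schwann cells guide regrowing axons.

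Many of these genes lie side by side, which is why the starts of the neighbours are shown. In the mouse annotation *Ecm2*, *Aspn*, *Omd* and *Ogn* follow each other on the plus strand of chromosome 13, *Dcn* and *Lum* are neighbours on chromosome 10, *Prelp* and *Fmod* on chromosome 1, while *Bgn* is on chromosome X and *Podn* on chromosome 4. A gene on the opposite strand, *Cenpp*, overlaps all 4 members on chromosome 13, and the long noncoding *Gm15851* overlaps *Prelp*. The 3′ tag library keeps the strand, so reads of these overlapping genes are counted apart. The 200 bases before the RefSeq start of the 4 chromosome 13 members and of *Fmod*, the member with the narrowest class pattern, are given 5′ to 3′ on the gene's strand (GRCm38.p6), with E-boxes (CANNTG, either strand) in capitals. They lie at chr13:49504610-49504809 for *Ecm2*, chr13:49544243-49544442 for *Aspn*, chr13:49582262-49582461 for *Omd*, chr13:49607815-49608014 for *Ogn* and chr1:134037054-134037253 for *Fmod*.
Ecm2: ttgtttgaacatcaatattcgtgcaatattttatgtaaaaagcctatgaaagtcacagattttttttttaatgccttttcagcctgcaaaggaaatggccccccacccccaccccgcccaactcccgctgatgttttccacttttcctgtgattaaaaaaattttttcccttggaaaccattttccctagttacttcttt
Aspn: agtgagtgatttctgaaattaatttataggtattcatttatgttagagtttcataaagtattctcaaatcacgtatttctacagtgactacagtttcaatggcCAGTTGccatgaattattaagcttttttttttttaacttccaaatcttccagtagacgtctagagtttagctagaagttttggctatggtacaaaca
Omd: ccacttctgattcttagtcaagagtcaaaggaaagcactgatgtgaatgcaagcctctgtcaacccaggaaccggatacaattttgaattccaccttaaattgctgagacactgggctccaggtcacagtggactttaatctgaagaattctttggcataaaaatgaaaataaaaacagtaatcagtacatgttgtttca
Ogn: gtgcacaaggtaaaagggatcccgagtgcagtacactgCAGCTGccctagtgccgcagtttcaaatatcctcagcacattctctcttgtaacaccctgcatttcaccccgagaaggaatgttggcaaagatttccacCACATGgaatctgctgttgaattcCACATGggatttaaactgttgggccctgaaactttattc
Fmod: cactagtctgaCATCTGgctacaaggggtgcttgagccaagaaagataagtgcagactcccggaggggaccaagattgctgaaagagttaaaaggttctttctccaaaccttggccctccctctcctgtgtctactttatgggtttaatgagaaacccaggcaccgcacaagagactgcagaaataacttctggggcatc

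The windows held different motifs. *Ogn* held 3 E-boxes, of which 1 overlapped a RUNX match (TGTGGT), and a TEAD match (GGAATG). *Aspn* held 1 E-box and 1 TATAAA, and *Fmod* held 1 E-box. *Ecm2* held 1 GC box (GGGCGG) and no E-box, and *Omd* held none of the 6 motifs searched, which also included the AP-1 letters TGANTCA. Among all 32851 RefSeq windows of the same length, searched on both strands, 58.2% held an E-box, 31.0% a GC box, 11.2% the RUNX letters, 10.1% the TEAD letters, 9.96% TATAAA and 5.48% the AP-1 letters. The RefSeq table matched 8 of the 10 members, *Dcn* and *Lum* being absent from it. A match is a description of the letters only.

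After filtering, 21046 cells of the IgG library and 22282 of the SPP1-nAb library were analysed, with medians of 3664 and 4595 UMIs (unique molecular identifiers, 1 per captured RNA molecule) per cell. The 10 members together had 373754 UMIs in the IgG library and 188516 in the SPP1-nAb library. The SPP1-nAb library was the deeper of the pair but held fewer fibroblasts. Mesenchymal-like cells were 10.3% of the cells with IgG and 4.23% with SPP1-nAb (2161 and 942 cells), tenocyte-like cells 3.13% and 1.80% (659 and 401), endoneurial fibroblast-like cells 1.43% and 0.413% (301 and 92). Both libraries shared 163 cell barcodes. Classes were formed without any member gene. They were named from fixed markers, so the sums of those markers describe the classes and are no check on their names. Summed over the 10 mesenchymal markers, which include *Pdgfra* and *Pi16*, levels were 8959 and 8381 CPM (counts per 1000000, the UMIs of a gene among 1000000 UMIs of its class) in mesenchymal-like cells. The 7 tenocyte markers, such as *Tnmd* and *Scx*, summed to 13858 and 18154 CPM in tenocyte-like cells, and the 8 Schwann cell markers to 4625 and 4282 CPM in Schwann-like cells. The endoneurial fibroblast-like cluster carried 4 of its own 6 markers above the other cells but also 7 of the 10 mesenchymal markers, so its name is the least secure of these.

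The small leucine-rich proteoglycans were genes of the 3 fibroblast classes. Mesenchymal-like, tenocyte-like and endoneurial fibroblast-like cells made up a small part of both libraries, yet they held 97.4% of all member UMIs in the IgG library and 95.2% in the SPP1-nAb library. Of the 10 members, 9 had their highest level in one of these classes, against 17.5% of the 16654 genes compared in the same way. The exception was *Aspn*, asporin, an inhibitor of TGF-β, whose level over both libraries was 1133 CPM in pericyte or smooth muscle-like cells and 1083 CPM in mesenchymal-like cells. In single libraries that order held for IgG alone, at 1139 against 1029 CPM. In the SPP1-nAb library the values were 1125 and 1168 CPM, with counting intervals that overlapped.

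**Figure D1:**
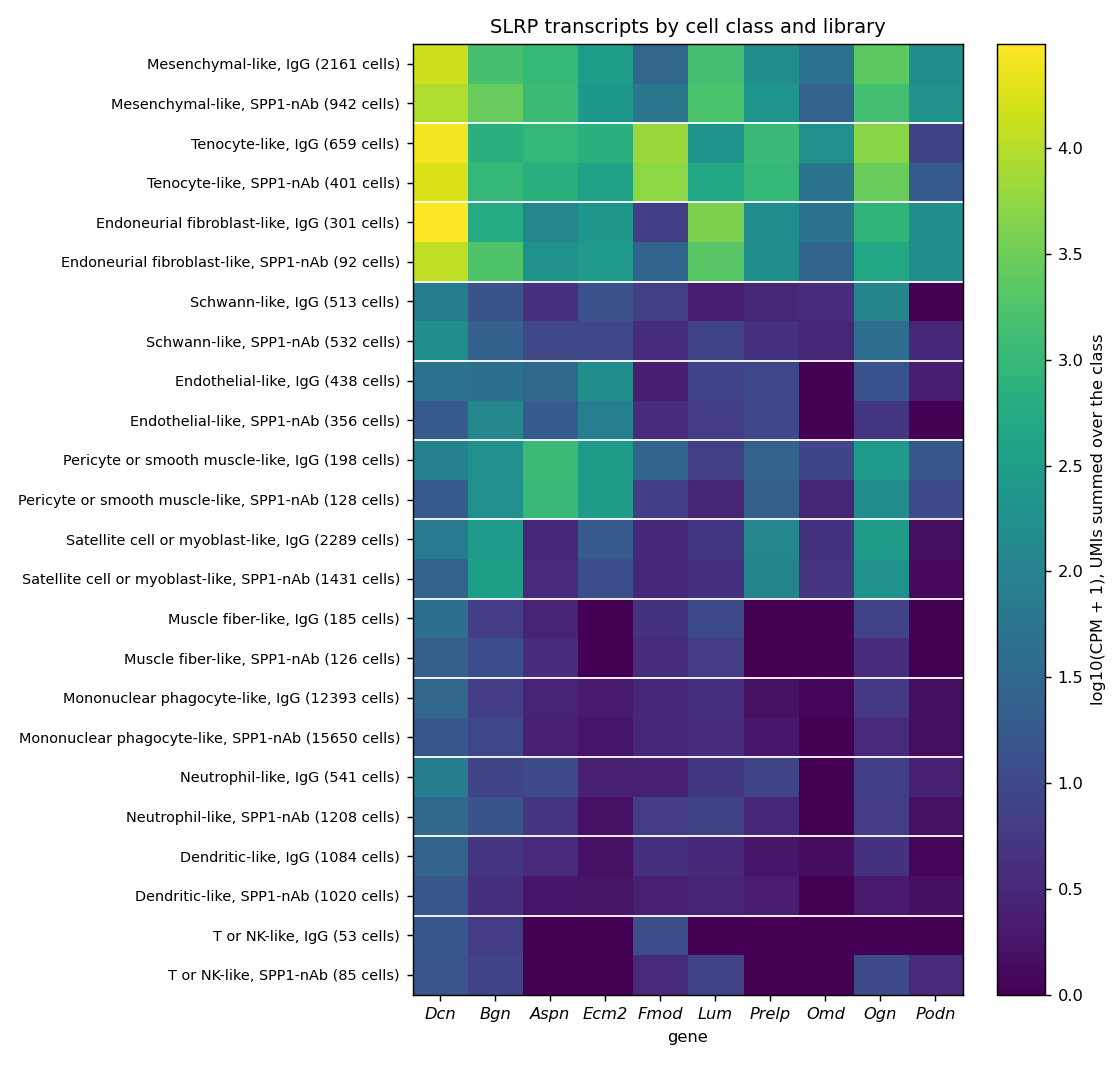
Heatmap of the level of each of the 10 members, as log10(CPM + 1), with 1 column per gene and 1 row per cell class and library. *Dcn* lies at 9073 CPM or more in all 3 fibroblast classes of both libraries, and *Fmod* at 5346 CPM or more in tenocyte-like cells and at 58.4 CPM or less in the other 2 fibroblast classes.

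*Dcn*, decorin, the collagen-binding proteoglycan that also sequesters TGF-β, was present in nearly every fibroblast. In mesenchymal-like cells its level was 13979.8 CPM with IgG (interval 13913 to 14046) against 9073 CPM with SPP1-nAb (9006 to 9140). Tenocyte-like cells had 25964.5 and 18312.5 CPM, and endoneurial fibroblast-like cells 30999 and 11467.5 CPM. The top of the order therefore changed from endoneurial fibroblast-like cells in the IgG library to tenocyte-like cells in the SPP1-nAb library. With every cell thinned to 2000 UMIs, *Dcn* was seen in 99.4% and 97.3% of the mesenchymal-like cells. Mononuclear phagocyte-like cells, which should lack it, showed it in 5.60% and 3.06%, with 29.0 and 15.8 CPM.

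*Bgn*, biglycan, the closest relative of decorin and a ligand of Toll-like receptors when released, was highest in mesenchymal-like cells, at 1537 CPM in the IgG and 2849 CPM in the SPP1-nAb library. In tenocyte-like cells it had 735 and 964 CPM and in endoneurial fibroblast-like cells 581 and 1819 CPM. Its second place thus passed from tenocyte-like to endoneurial fibroblast-like cells between the libraries.

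*Fmod*, fibromodulin, which binds collagen and steers fibril maturation in tendon, was the most restricted member. Tenocyte-like cells had 6537 and 5346 CPM, mesenchymal-like cells 28.8 and 58.4 CPM, and endoneurial fibroblast-like cells 5.84 and 26.8 CPM. Within the IgG library the level was 227 times (204 to 253) higher in tenocyte-like than in mesenchymal-like cells, and within the SPP1-nAb library 91.6 times (83.2 to 101). Tenocyte-like cells held 95.4% and 91.9% of all *Fmod* UMIs. *Prelp*, a basement membrane and collagen binding member without long sugar chains in many tissues, was also first in tenocyte-like cells, at 1055 and 960.5 CPM against 165 and 227 CPM in mesenchymal-like cells. Unlike *Fmod* it had a sizeable part outside the fibroblast classes, since satellite cell or myoblast-like cells held 15.8% and 16.4% of its UMIs.

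*Ogn*, osteoglycin, and *Omd*, osteomodulin, named for their discovery in bone, peaked in the same cells as *Fmod* but less sharply. *Ogn* had 4907 and 2870.5 CPM in tenocyte-like cells, 2335 and 1436 CPM in mesenchymal-like cells and 859 and 489 CPM in endoneurial fibroblast-like cells. *Omd* was low, at 179 and 51.8 CPM in tenocyte-like, 50.4 and 25.2 CPM in mesenchymal-like and 52.6 and 26.8 CPM in endoneurial fibroblast-like cells, and in the SPP1-nAb library the intervals of tenocyte-like and endoneurial fibroblast-like cells overlapped (40.8 to 65.0 and 12.3 to 51.0 CPM).

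*Lum*, lumican, the keratan sulfate proteoglycan needed for a clear cornea, and *Podn*, podocan, showed the opposite arrangement, with low levels in tenocyte-like cells. *Lum* had 3970.1 and 2150.35 CPM in endoneurial fibroblast-like cells, 1393 and 1627 CPM in mesenchymal-like cells and 212 and 474 CPM in tenocyte-like cells. *Podn* had 159 and 158 CPM in endoneurial fibroblast-like cells and 157 and 195 CPM in mesenchymal-like cells, which did not differ beyond their counting intervals, and 6.36 and 18 CPM in tenocyte-like cells. *Ecm2*, a matrix protein with a leucine-rich domain, had 738 and 379 CPM in tenocyte-like cells, 310.1 and 249 CPM in mesenchymal-like cells and 239.6 and 256 CPM in endoneurial fibroblast-like cells.

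A single fibroblast usually carried several members at once. At 2000 UMIs per cell the median number of members detected was 6 in tenocyte-like, 5 in mesenchymal-like and 4 in endoneurial fibroblast-like cells in both libraries. It was 2 in pericyte or smooth muscle-like cells, 1 in satellite cell or myoblast-like cells and 0 in the other classes. Across cells of a class the members correlated weakly to moderately. In tenocyte-like cells Pearson's r was 0.46 and 0.44 for *Dcn* with *Fmod* and 0.38 and 0.56 for *Fmod* with *Prelp* (423 and 301 cells), and in mesenchymal-like cells it was 0.37 and 0.47 for *Bgn* with *Lum* and -0.40 and -0.18 for *Dcn* with *Aspn* (2072 and 927 cells). *Dcn* with *Bgn* changed sign in mesenchymal-like cells, at -0.18 with IgG and 0.31 with SPP1-nAb. *Dcn* with *Lum* had 0.63 and 0.61 in endoneurial fibroblast-like cells (188 and 49 cells). These coefficients are descriptions, since the cells of a class share 1 library and several clusters.

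Within the mesenchymal-like class the members split by cluster. The largest cluster, led by *Gdf10*, *Inmt* and *Penk*, held 1372 IgG and 737 SPP1-nAb cells. A second, led by *Krtdap* and *Pi16*, a marker of adventitial fibroblasts, held 555 and 199 cells. The smallest, led by *Kcnb2* and *Dlk1*, held 234 IgG cells and only 6 SPP1-nAb cells, so that a cell type and a library cannot be told apart there.

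**Figure D2:**
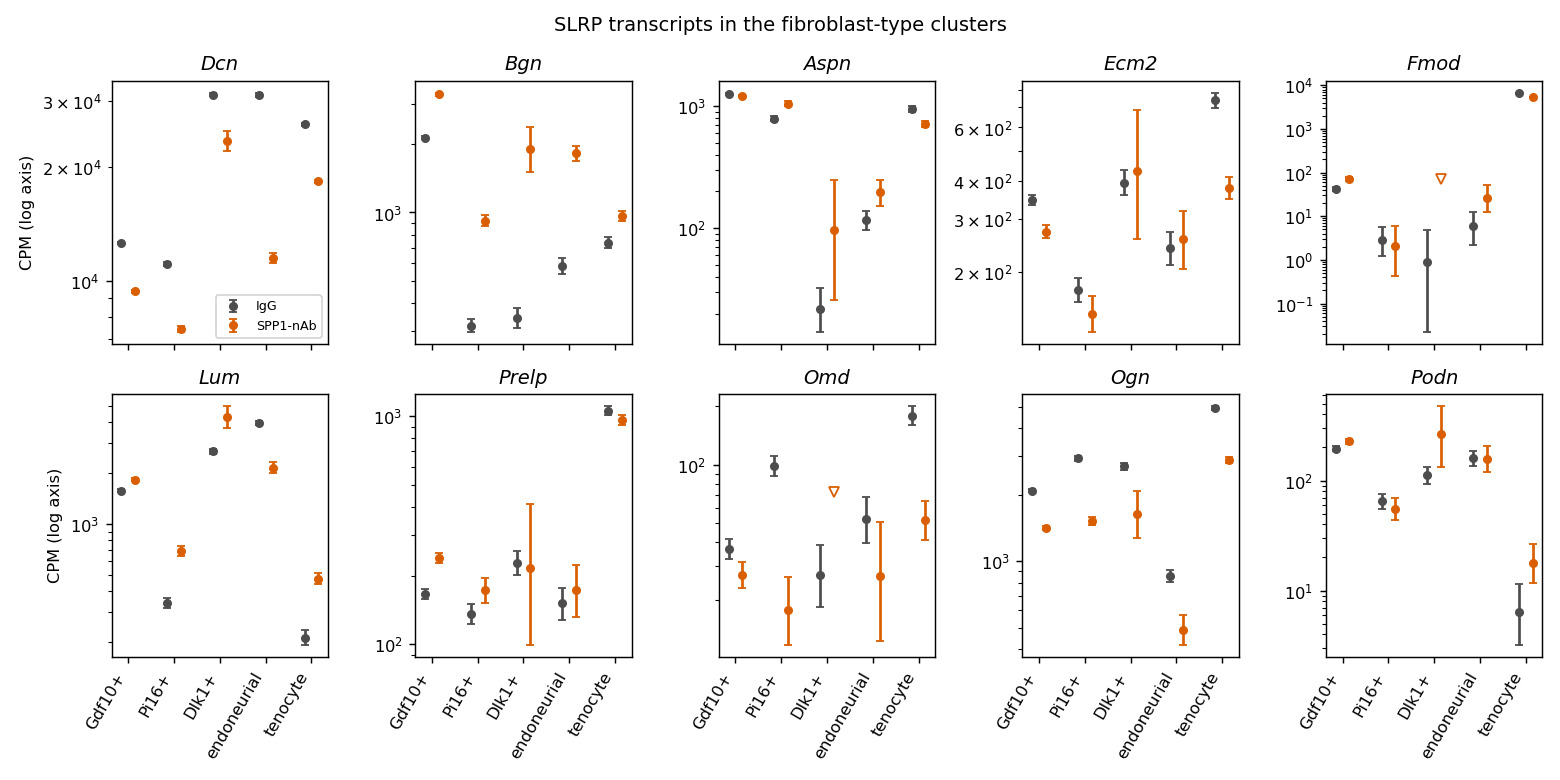
Level of each member (CPM, log axis) in the 3 mesenchymal-like clusters, the endoneurial fibroblast-like cluster and the tenocyte-like cluster, with 1 point per library, bars for the 95% counting interval and open triangles at the limit of 3 counts where no UMI was seen. *Aspn* ranges from 21.9 to 1253 CPM among the mesenchymal-like clusters of the IgG library, a wider spread than between mesenchymal-like and tenocyte-like cells as a whole.

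*Aspn* and *Fmod* differed between these clusters. The level of *Aspn* was 1253 and 1204 CPM in *Gdf10*+ cells, 788 and 1044 CPM in *Pi16*+ cells and 21.9 and 96.1 CPM in *Dlk1*+ cells. *Fmod* had 41.8 and 71.9 CPM in *Gdf10*+ cells, 2.83 and 2.07 CPM in *Pi16*+ cells, and 1 UMI with IgG and 0 with SPP1-nAb in *Dlk1*+ cells. *Dcn* went the other way, with 12589.6 and 9357 CPM in *Gdf10*+ cells, 11086 and 7443 CPM in *Pi16*+ cells and 31106 and 23468 CPM in *Dlk1*+ cells, close to the endoneurial fibroblast-like cluster in the IgG library. *Bgn* and *Lum* were low in *Pi16*+ cells, at 319 and 921 CPM and at 340.5 and 691 CPM, against 2126 and 3306 CPM and 1576 and 1828 CPM in *Gdf10*+ cells. In *Dlk1*+ cells *Bgn* had 344 and 1898 CPM, near the *Pi16*+ level with IgG, whereas *Lum* had 2700 and 4300 CPM, the highest of the 3 clusters. *Podn* was also lower in *Pi16*+ than in *Gdf10*+ cells, at 64.6 and 55.2 CPM in *Pi16*+ and 195 and 227 CPM in *Gdf10*+ cells. *Ogn* was spread more evenly, at 2086 and 1414 CPM in *Gdf10*+, 2914 and 1525 CPM in *Pi16*+ and 2682 and 1633 CPM in *Dlk1*+ cells. At a finer clustering, described further on, *Aspn* had 1923 and 1441 CPM in a cluster led by *Postn*. It had 427 and 598 CPM in a cluster led by *Inmt* and *Gdf10*, and 832 and 1177 CPM in a *Pi16*+ cluster. *Fmod* had 71.1 and 88.6 CPM in the *Postn* cluster and 6.04 and 31.3 CPM in the *Inmt* and *Gdf10* cluster. The order of *Aspn* between *Gdf10*+ and *Pi16*+ cells therefore did not hold at that clustering.

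Outside the fibroblasts, individual members appeared in perivascular and muscle cells. To judge these low levels, each was set against an upper estimate of free RNA, which is the level that a class would show if the UMIs of markers it should lack all came from RNA in the droplet fluid. Pericyte or smooth muscle-like cells (198 and 128 cells) had *Aspn* at 163 and 218 times that estimate and *Ecm2* at 109 and 207 times, with *Ecm2* at 291 and 287 CPM. Pericyte and smooth muscle clusters were alike in *Aspn*, at 1132 and 1075 CPM and at 1142 and 1151 CPM. *Ogn* was higher in the smooth muscle cluster, at 348 and 195 CPM against 84.9 and 52.9 CPM, whereas *Dcn* in the class was 0.805 and 0.364 times the free-RNA estimate. Of the 10 mesenchymal markers 3 were at 0 in this class in each library, and all 10 summed to 186 and 192 CPM.

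**Figure D3:**
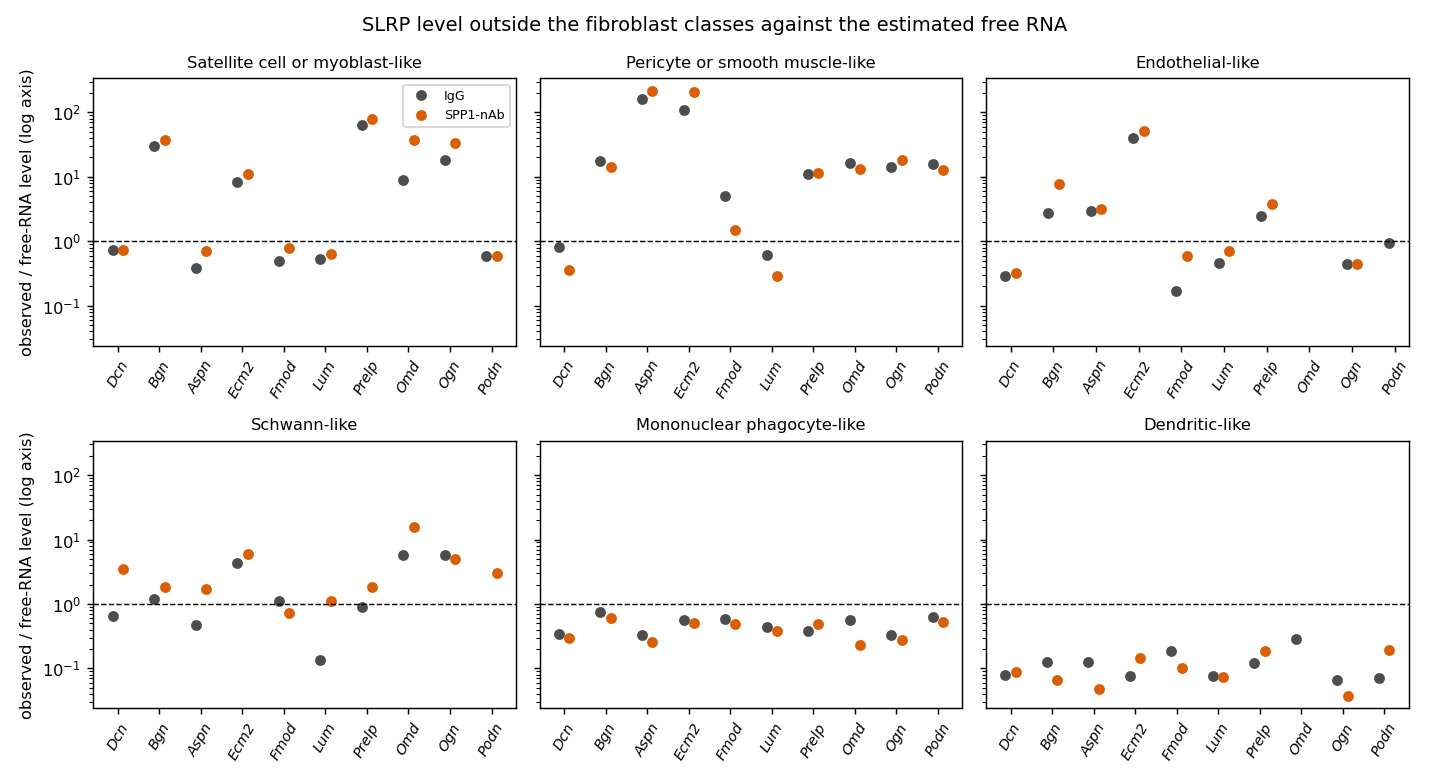
Observed level of each member divided by the upper free-RNA estimate (log axis) in satellite cell, pericyte, endothelial, Schwann, phagocyte and dendritic classes, 1 point per library, with the line at 1 marking equality. *Aspn* and *Ecm2* in pericytes and *Prelp* in satellite cells lie at 64.8 times or more, whereas all 10 members in phagocytes lie below it.

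Satellite cell or myoblast-like cells (2289 and 1431 cells), the muscle stem cells and their progeny, carried *Bgn*, *Ogn* and *Prelp*. *Bgn* had 261 (249 to 274) and 339 (325 to 354) CPM, *Ogn* 280.1 and 191 CPM and *Prelp* 120 (111 to 129) and 104 (96.5 to 113) CPM. These levels were 30.0 and 37.1, 18.2 and 33.4, and 64.8 and 77.9 times the free-RNA estimate, while *Dcn*, at 69.2 and 25.4 CPM, was at 0.724 and 0.737 times. At 2000 UMIs per cell *Bgn* was seen in 35.0% and 50.4%, *Ogn* in 37.1% and 30.3% and *Prelp* in 21.2% and 21.3% of these cells, against 1.26% and 1.83%, 0.790% and 0.449%, and 0.153% and 0.180% of phagocytes. Thinning left out 933 and 336 satellite cells and 1253 and 1169 phagocytes, whose classes had median depths of 2191 and 3222 and of 3918 and 4932 UMIs. Without thinning the shares in satellite cells were 34.0% and 58.9% for *Bgn*, 43.8% and 41.3% for *Ogn* and 22.8% and 28.2% for *Prelp*. Cells of the *Pax7*+ cluster had more *Prelp* than those of the *Myog*+ cluster of differentiating myoblasts, at 151 and 181 against 39.7 and 20.3 CPM, and more *Ogn*, at 338 and 256 against 133 and 119.7 CPM. The 10 mesenchymal markers summed to 297 and 219 CPM in these cells, and their part in the member levels was not tested. Pericyte or smooth muscle-like cells had *Ogn* at 262 and 147 CPM, with counting intervals that overlapped those of satellite cells. They had less *Bgn*, at 185 and 181 CPM, and less *Prelp*, at 24.7 and 21.6 CPM.

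Endothelial-like cells (438 and 356 cells) had 1 clear member, *Ecm2*, at 163 (135 to 196) and 84.8 (64.9 to 109) CPM, 39.6 and 52.2 times the free-RNA estimate. *Bgn* followed at 44.0 and 118 CPM, 2.73 and 7.83 times the estimate. The median depth of these cells was low, at 1180 and 1289 UMIs. *Omd* had no UMI in either library, which at 3 counts allowed up to 4.26 and 4.17 CPM.

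In Schwann-like cells (513 and 532 cells) the members were few and concentrated. *Ogn* had 109 (92.3 to 127) CPM in the IgG and 39.8 (31.0 to 50.3) CPM in the SPP1-nAb library, 5.66 and 5.07 times the free-RNA estimate. *Dcn* had 76.8 (63.2 to 92.4) and 168 (149 to 188) CPM, 0.645 and 3.55 times the estimate, and the remaining 8 members were at or below 22.7 CPM. *Ogn* was seen in 5.57% and 5.57% of cells thinned to 2000 UMIs and *Dcn* in 8.08% and 6.03%, where phagocytes showed 0.790% and 0.449% and 5.60% and 3.06%. Thinning left out 154 and 101 Schwann-like cells, whose median depth was 2629 and 3112 UMIs, and without it the shares were 9.36% and 7.14% for *Ogn* and 10.5% and 7.71% for *Dcn*, against 1.78% and 1.21% and 10.8% and 7.30% in phagocytes. Among the 359 and 431 Schwann-like cells thinned to 2000 UMIs, no member was seen in 84.7% and 85.2%, against 90.7% and 93.2% of thinned phagocytes. The 10 cells with the most *Dcn* held 60.4% of its 111 UMIs in the IgG library and 88.1% of its 295 UMIs in the SPP1-nAb library, where a single cell had 58. Cells with at least 2 of the 17 mesenchymal and tenocyte markers numbered 32 of 513 and 48 of 532, and they held 55 of 111 and 252 of 295 *Dcn* UMIs. For *Ogn* the same cells held 67 of 157 and 18 of 70 UMIs. The 10 cells with the most *Ogn* held 66.9% of its UMIs with IgG, where a single cell had 34, and 54.3% with SPP1-nAb.

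The Schwann-like cells formed a pair of clusters that differed in *Ogn*. The leading genes of one included *Reln*, which encodes the secreted protein reelin (298 and 322 cells, 76.9% with a *Reln* UMI), and those of the other included *Klk9* (215 and 210 cells, 4.71% with *Reln*). *Ogn* had 176 and 65.5 CPM in the *Reln*+ cluster and 20.7 and 4.07 CPM in the other, a log2 difference of 3.29 (2.55 to 4.12) over both libraries. Between Schwann-like cells with and without a *Reln* UMI the difference was smaller, at 1.61 (1.16 to 2.07). Neither difference was recomputed without the cells carrying at least 2 mesenchymal or tenocyte markers, which held 67 of 157 and 18 of 70 *Ogn* UMIs. *Dcn* had 73.3 and 275 CPM in the *Reln*+ cluster and 81.3 and 19.0 CPM in the other. The IgG values came from 60 and 51 UMIs and were close, so a clear order was seen in the SPP1-nAb library alone.

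Between the antibodies, the members differed in both directions in mesenchymal-like cells. *Dcn*, *Ogn* and *Omd* were lower and *Bgn* and *Fmod* higher in the SPP1-nAb library by at least 1.5-fold, which makes 3 lower and 2 higher of the 10 members. Among the 11952 genes with at least 50 UMIs in these cells, 8.06% were lower and 6.98% higher by that fold, and the median log2 ratio of all genes was -0.02. The log2 ratio of SPP1-nAb to IgG was -0.62 (-0.64 to -0.61) for *Dcn*, -0.70 (-0.73 to -0.67) for *Ogn* and -1.0 (-1.24 to -0.77) for *Omd*. It was 0.89 (0.86 to 0.92) for *Bgn* and 1.02 (0.81 to 1.22) for *Fmod*. The other 5 lay within 1.5-fold, from -0.32 for *Ecm2* through 0.18 for *Aspn*, 0.22 for *Lum* and 0.31 for *Podn* to 0.46 for *Prelp*. Added together the members had a ratio of -0.31 (-0.32 to -0.30), and the share of member UMIs that were *Dcn* was 66.6% in the IgG and 53.7% in the SPP1-nAb library, while that of *Bgn* was 7.32% and 16.9%. Without the *Dlk1*+ cluster, a setting chosen after seeing the data, *Dcn* was within 1.5-fold at -0.44, and with no doublets removed *Fmod* was, at 0.19.

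**Figure D4:**
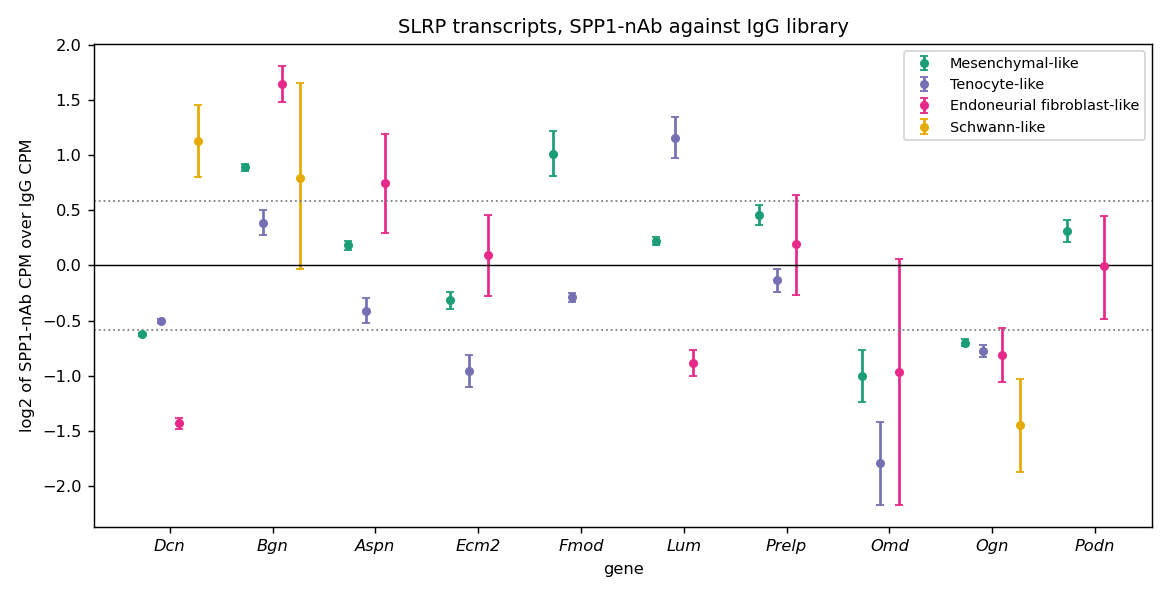
Log2 ratio of SPP1-nAb to IgG for each member with at least 50 UMIs in mesenchymal-like, tenocyte-like, endoneurial fibroblast-like and Schwann-like cells, with 95% counting intervals and dotted lines at 1.5-fold. *Ogn* is below 0 in all 4 classes and *Bgn* has a positive estimate in all 4, whereas *Lum* is at 1.16 in tenocyte-like and at -0.88 in endoneurial fibroblast-like cells.

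For *Bgn*, *Lum* and *Ogn* the shares of cells with a UMI went in the same directions as these ratios. In mesenchymal-like cells thinned to 2000 UMIs, which left out 89 and 15 cells, *Bgn* was seen in 62.1% with IgG and 89.3% with SPP1-nAb, *Lum* in 68.6% and 82.2%, and *Ogn* in 85.8% and 75.2%. Without thinning, at median depths of 5128 and 8085 UMIs, the shares were 71.8% and 93.8%, 79.5% and 91.3%, and 92.6% and 90.2%.

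In tenocyte-like cells 3 of the 9 members with enough UMIs were lower by at least 1.5-fold and 1 was higher, against 4.97% and 8.58% of the 6807 genes tested. *Ecm2* had a log2 ratio of -0.96 (-1.11 to -0.81), *Ogn* -0.77 (-0.83 to -0.72) and *Omd* -1.79 (-2.17 to -1.42), while *Lum* had 1.16 (0.98 to 1.35). *Ecm2*, *Ogn* and *Omd*, which had their highest level in tenocyte-like cells, were thus lower past the fold. *Fmod* and *Prelp*, also highest there, were lower by less than the fold, at -0.29 (-0.33 to -0.25) and -0.13 (-0.24 to -0.03). *Dcn* was likewise lower by less than the fold, at -0.50. The summed tenocyte markers were 13858 CPM in the IgG and 18154 CPM in the SPP1-nAb library, the mesenchymal ones 874 and 838 CPM, and phagocyte markers 182 and 373 CPM.

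Endoneurial fibroblast-like cells had 92 cells in the SPP1-nAb library. Of 9 members tested, 4 were lower and 2 higher, where 13.3% and 14.6% of 4233 genes were. *Dcn* had -1.43 (-1.48 to -1.39), *Lum* -0.88 (-1.0 to -0.77), *Ogn* -0.81 (-1.06 to -0.57) and *Omd* -0.97, with an interval from -2.17 to 0.06. *Bgn* had 1.65 (1.48 to 1.81) and *Aspn* 0.75 (0.30 to 1.20). In the same cells the summed endoneurial markers were 1337 CPM in the IgG and 752 CPM in the SPP1-nAb library, the 5 perineurial markers 320 and 597 CPM and the phagocyte markers 101 and 319 CPM. Their part in the result was not tested.

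The 3 members with enough UMIs in Schwann-like cells all passed the fold, *Ogn* at -1.45 (-1.88 to -1.03), *Dcn* at 1.13 (0.81 to 1.45) and *Bgn* at 0.79 (-0.03 to 1.66), where 4.29% of 7531 genes were lower and 3.69% higher. Both the *Dcn* and the *Ogn* value rested on a few cells. In the IgG library 10 cells held 66.9% of the *Ogn* UMIs, and a single cell had 34 of 157. Over 12 alternatives *Ogn* ranged from -1.94 to -0.72. Without the 32 and 48 cells that carried at least 2 mesenchymal or tenocyte markers, a setting chosen after seeing the data, *Dcn* was at -0.61. It was also below 0 with no doublets removed, at -0.36, and with 20% removed, at -0.62. By cluster the *Dcn* ratio was 1.91 (1.5 to 2.33) in *Reln*+ cells and -2.10 (-3.07 to -1.22) in the other cluster. *Ogn* was lower in both clusters, at -1.42 (-1.86 to -1.0) in *Reln*+ cells and -2.35 (-4.80 to -0.49) in the other. The latter value came from 13 UMIs with IgG and 3 with SPP1-nAb.

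In satellite cell or myoblast-like cells 2 of 5 members were lower by at least 1.5-fold and none higher, against 6.21% and 7.84% of all genes tested. These were *Dcn* at -1.45 and *Ecm2* at -0.77. The level of *Dcn* was below the free-RNA estimate in both libraries. *Ecm2* was at -0.71 in the *Pax7*+ cluster and at 0.60 (-0.65 to 1.99) in the *Myog*+ cluster, which had 8 and 20 UMIs. *Bgn*, at 0.38 over the class, was 0.88 (0.78 to 0.99) in the *Pax7*+ cluster and -0.55 (-0.75 to -0.36) in the *Myog*+ cluster, opposite signs within 1 class. In pericyte or smooth muscle-like cells *Aspn*, *Ecm2* and *Bgn* differed by -0.02 (-0.18 to 0.14), -0.02 (-0.34 to 0.30) and -0.03 (-0.44 to 0.37). *Dcn*, at -2.39 from 60 and 9 UMIs, and *Ogn*, at -0.83, were lower. This made 2 of 5 lower and none higher, where 5.10% and 5.34% of genes were. There too the level of *Dcn* was below the free-RNA estimate in both libraries. In endothelial-like cells *Ecm2* had -0.95 and *Bgn* 1.42, where 5.37% and 6.42% of genes passed the fold in those directions.

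The mesenchymal-like differences were not spread evenly over its cells. At a finer clustering, a cluster led by *Postn*, the gene of the matrix protein periostin, *Cthrc1* and *Lrrc15*, genes of activated fibroblasts, held 577 IgG and 499 SPP1-nAb cells, another led by *Inmt* and *Gdf10* held 786 and 235, and another led by *Krtdap* and *Pi16* held 506 and 149. In *Postn*+ cells every member was within 1.5-fold, from *Aspn* at -0.42 (-0.46 to -0.37) to *Omd* at 0.33 (-0.10 to 0.76), with *Dcn* at -0.16 and *Bgn* at 0.21. In *Inmt*+ cells *Bgn* had 1.45 (1.39 to 1.52), *Fmod* 2.37 (1.63 to 3.16), *Prelp* 0.96, *Lum* 0.72, *Ogn* -0.75, *Ecm2* -0.71 (-0.87 to -0.56) and *Omd* -0.70 (-1.14 to -0.29), and *Dcn*, at -0.44, was within 1.5-fold. The *Fmod* value came from 22 UMIs with IgG and 54 with SPP1-nAb, whereas *Postn*+ cells held 319 and 395 *Fmod* UMIs. Whether RNA of tenocyte-like cells contributed to *Fmod* here was not tested. In *Pi16*+ cells *Bgn* had 1.67 (1.54 to 1.79), *Lum* 1.12, *Ogn* -0.82 and *Omd* -2.36 (-3.00 to -1.78). *Postn* itself had a ratio of -0.01 in *Postn*+ cells, 2.79 in *Inmt*+ cells and 1.21 in *Pi16*+ cells. The share of all genes past the fold was not counted in these finer clusters. Whether the contrast between them is particular to the members was therefore not tested.

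**Figure D5:**
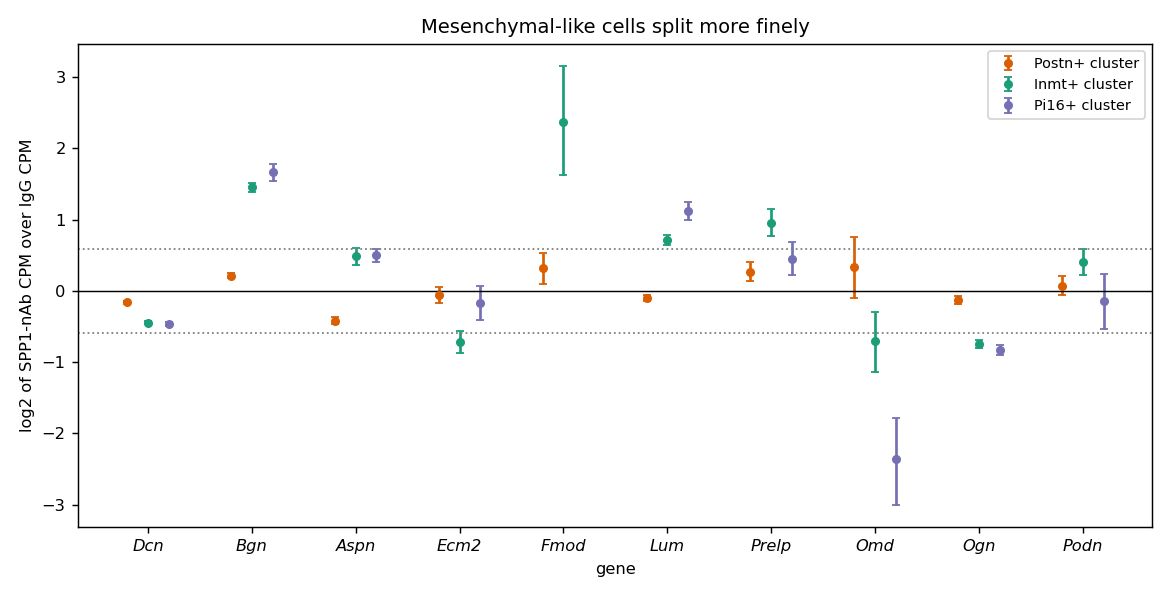
Log2 ratio of SPP1-nAb to IgG for each member in 3 finer mesenchymal-like clusters, led by *Postn*, *Inmt* and *Pi16*, with 95% counting intervals and dotted lines at 1.5-fold. Members of the *Postn*+ cluster lie between -0.42 and 0.33, whereas *Bgn* is at 1.45 in the *Inmt*+ and 1.67 in the *Pi16*+ cluster.

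With all mesenchymal-like clusters of the finer division given the same weight in both libraries, also a setting added after seeing the data, 2 members instead of 5 passed the fold. The share of all genes past the fold was not counted in that setting.

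The genes that act with these proteoglycans were followed as lists. The list of 12 collagen genes, partners that the members bind, held fibrillar and fibril-associated chains and the collagen VI genes *Col6a1*, *Col6a2* and *Col6a3*. All 12 had their highest level in a fibroblast class, 10 of them in mesenchymal-like and 2, *Col11a1* and *Col12a1*, in tenocyte-like cells. Of 18 fibril assembly and cross-linking genes 16 did so, of 10 proteases that cleave small leucine-rich proteoglycans 6, of 23 genes of glycosaminoglycan chain synthesis 10, and of 17 receptors and ligands 4, against the 17.5% of all genes. Of 5 further family members with enough UMIs 3 were highest in fibroblasts, among them *Kera*, keratocan, at 870.1 CPM in tenocyte-like and 29.2 CPM in mesenchymal-like cells. The 4 receptors and ligands were *Egfr*, *Lrp1* and *Tgfb2* in mesenchymal-like and *Ccn2* in tenocyte-like cells, while *Tlr2*, *Cd14* and *Cd44* were highest in neutrophil-like cells. *Kdr* was highest in endothelial-like cells, but it is among the fixed markers that named them.

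In mesenchymal-like cells the collagens did not follow *Dcn*. Of all genes tested in these cells, 8.06% were lower and 6.98% higher by 1.5-fold. None of the 12 collagens was lower by that fold and 1 was higher, *Col12a1* at 0.79 (0.69 to 0.89), with a list median of 0.19. Of the 9 activated fibroblast genes 8 were higher and none lower, with a median of 0.88. Among them were *Postn* at 0.68, *Tnc* at 1.25, *Acta2* at 1.54 and *Tagln* at 1.76. Over both libraries *Acta2* and *Tagln* were low in these cells, at 33.5 and 28.1 CPM. Pericyte or smooth muscle-like cells had 8952 and 10380 CPM of them, and whether RNA of those cells contributed was not tested. Of 8 proteases 2 were higher, *Mmp3* at 1.44 (1.37 to 1.52) and *Mmp13* at 2.14 (1.73 to 2.56). Of 18 fibril assembly genes 3 were higher, including *Lox*, the collagen cross-linking enzyme, at 1.09, and 1 lower, *Pcolce2*, an enhancer of procollagen processing, at -1.22. Of 21 glycosaminoglycan genes 5 were higher and 1 lower, the named ones being *Chst11* at 1.53, *Csgalnact1* at 0.92, *Xylt1*, which starts the chain, at 0.86 and *Chst1* at -1.91. Of 16 receptors and ligands 4 were higher and 3 lower, with *Ccn2* at 1.03, *Cd44*, also a receptor for osteopontin, at 0.97, *Met* at -1.28 and *Itga2* at -1.31. Among 4 other family members *Kera* was higher, at 1.71 (1.46 to 1.97), from 15.5 to 50.7 CPM, and 1 was lower.

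In tenocyte-like cells, where 8.58% of all genes were higher and 4.97% lower, *Mmp13*, collagenase 3, went from 17.4 CPM with IgG to 380.1 CPM with SPP1-nAb, at a log2 ratio of 4.45 (3.92 to 5.03), and *Mmp14* had 1.0 and *Mmp3* 0.93, making 3 of 8 higher and none lower. Of 12 collagens 4 were higher and none lower, with *Col3a1* at 0.94 and *Col14a1* at 1.31. Of 14 fibril assembly genes 3 were higher and 2 lower, with *Fn1* at 0.87 and *Pcolce2* at -1.28. Of 12 glycosaminoglycan genes 3 were higher and none lower, of 15 receptors and ligands 3 and 1, of 8 activated fibroblast genes 2 and none, and of 2 other family members none in either direction.

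In endoneurial fibroblast-like cells, where 13.3% of all genes were lower and 14.6% higher, 4 of 11 collagens were lower and 1 higher. The lower ones included *Col1a1* at -1.04 and *Col1a2* at -0.97. Of 7 activated fibroblast genes 6 were higher and 1 lower, with *Tagln* at 3.91, *Ccn2* at 2.89, *Postn* at 1.83 and *Thbs1* at -1.54. Over both libraries *Tagln* had 47.7 CPM in these cells, against 10380 CPM in pericyte or smooth muscle-like cells. In Schwann-like cells, where 4.29% of all genes were lower and 3.69% higher, 3 of 9 collagens were lower and none higher. Of 8 fibril assembly genes 2 were higher, with *Fn1* at 1.24, and none of 6 proteases passed the fold. In satellite cell or myoblast-like cells, where 6.21% of all genes were lower and 7.84% higher, 2 of 6 proteases were lower, with *Mmp2* at -1.96.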

How the data were processed

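Muscle cells of 1 IgG and 1 SPP1-nAb library were profiled with the 10x Genomics 3′ kit. The authors deposited UMI counts per gene and barcode, filtered to called cells. The labels name Cell Ranger 8.0.0 and GRCm39, the file header CellRanger 9.0.1, and the methods give GRCm39 in one place and GRCm38 in another. The deposited counts held 32287 features, 23779 and 25069 barcodes, and 97607674 and 127719916 UMIs.

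Barcodes with more than 200 genes and under 10% mitochondrial UMIs were kept (23385 and 24758), and the 10% of each library most like simulated doublets were removed. Counts were scaled to 10000 per cell and logged. Without *Spp1* and the 10 members, 2000 variable genes and 30 principal components were joined across libraries by a rewritten Harmony procedure and clustered (20 neighbours, Leiden, resolution 1). Clusters were named "X-like" when at least 3 fixed markers were raised at least 1.5-fold in at least 20% of cells and 1 was among the 50 leading genes. Mononuclear phagocytes were named by this rule too. A cluster left without a name, and not of low depth, also became mononuclear phagocyte-like if at least 5 of the 10 markers were detected. Clusters under 20 cells, or of low depth without a marker among 10 leading genes, stayed unnamed. These thresholds were set after the clusters were seen.

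UMIs were summed per class and library and given as CPM with exact Poisson intervals, ratios with exact binomial intervals and shares with Clopper-Pearson intervals, all at 95% and covering counting error only. Ratios were counted from 50 UMIs over both libraries and called at 1.5-fold, with no test. The free-RNA estimate took the class's UMIs of markers it should lack (phagocyte genes for non-immune classes, mesenchymal and tenocyte genes for immune ones) over the library's profile. Genes of the lists were named where the interval of the ratio excluded 1.5-fold or to say where a list was highest, at most 4 per list and comparison. The 3 genes most like each member had the highest Pearson's r over clusters. Alternatives are given in the closing section. The members, gene lists and markers were chosen with earlier results of these data known. The script was tested on simulated data. Promoters came from RefSeq (GRCm38.p6) and gene neighbours from GENCODE (GRCm39). Software was Python 3.11.15, numpy 2.4.6, scipy 1.17.1, pandas 2.3.3, igraph 0.11.9, leidenalg 0.10.2 and matplotlib 3.10.9.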

Additional observations from a re-analysis of the deposited data

Results flagged for a closer look

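*Dcn* and *Lum* had opposite directions between the antibodies in different cell classes, with counting intervals beyond 0 on either side. The log2 ratio of SPP1-nAb to IgG for *Dcn* was -0.62 in mesenchymal-like, -1.43 in endoneurial fibroblast-like, -1.45 in satellite cell or myoblast-like and -2.39 in pericyte or smooth muscle-like cells, but 1.13 in Schwann-like cells. The Schwann-like value was below 0 in 3 of 11 alternatives, the lowest at -0.62, and *Dcn* with IgG was there at 0.645 times the free-RNA estimate. In the satellite and pericyte classes *Dcn* was at or below the free-RNA estimate in both libraries. *Lum* had 1.16 in tenocyte-like and -0.88 in endoneurial fibroblast-like cells. With 1 library per group the difference between classes was not tested.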

How the results depend on the processing

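The 3 fibroblast classes held 96.7% of the member UMIs of both libraries. The share was 91.5% with a gate on single cells, 96.4% with no doublets removed, 96.6% at resolution 0.5, at resolution 2, without integration and with more than 500 genes per barcode, and 98.0% with free RNA subtracted. At resolutions 0.5 and 2, part of the endoneurial fibroblast-like cells fell in an unnamed cluster. The count of members past 1.5-fold in mesenchymal-like cells was 5 and was 2 with finer clusters weighted alike, an alternative added after seeing the data, where *Dcn*, at -0.36, *Fmod*, at 0.52, and *Ogn*, at -0.56, fell within the fold. *Dcn* was also within it at -0.45 with clusters weighted alike and at -0.44 without the *Dlk1*+ cluster, also added after seeing the data, and *Fmod* at 0.19 with no doublets removed. In Schwann-like cells it was 3, and 1 both with no doublets removed and with free RNA subtracted. There *Dcn*, at 1.13, turned to -0.36 with no doublets removed, -0.62 with 20% removed and -0.61 without the cells carrying 2 or more mesenchymal or tenocyte markers, and *Bgn*, at 0.79, turned to -0.069 with 20% removed. The share of IgG satellite cell or myoblast-like cells with an *Ogn* UMI was 37.1%, 43.8% unthinned and 25.5% at 1000 UMIs. The log2 difference of *Ogn* between Schwann-like clusters was 3.29, and 1.61 between cells with and without a *Reln* UMI. The cause of each change was not tested. Without a filter on low counts 41.3% of genes passed the fold in mesenchymal-like cells, 44.0% in tenocyte-like and 40.8% in Schwann-like cells, against 15%, 13.5% and 7.98% with it. In the other alternatives the share of all genes past the fold was not counted. Weighting clusters alike gave no value for tenocyte-like cells, which were 1 cluster. No paired analysis was possible because each group was 1 library. With 1 library per group no spread between replicates could be measured.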

Other observations

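The genes with patterns most like each member over 30 clusters, among 11685 genes with at least 500 UMIs, were given by Pearson's r of log2(CPM + 1), a description over clusters that share 2 libraries. *Fmod* was most like *Kera* (0.91), *Ptx4* and *Cilp2*, and *Podn* most like *Srpx* (0.96), *Mfap5*, a microfibril gene, and *Ror2*. *Lum* was most like *Pdgfra* (0.95), the receptor gene that marks fibro-adipogenic progenitors, *Cpxm1* and *Myoc*, and *Dcn* most like *Myoc* (0.97), *Cpxm1* and *Sec16b*. *Aspn* was most like *Cacna1c* (0.95), a calcium channel gene, *Pdgfrb*, a marker of mural cells, and *Shox2*, and *Ecm2* most like *Igfbp7* (0.97), *Lrig3* and *Fat4*. *Bgn* was most like *Fstl1* (0.97), *Serping1* and *Rarres2*, *Prelp* most like *Serping1* (0.96), *Svep1* and *Dnm3os*, *Ogn* most like *Serping1* (0.96), *Lox* and *Zfp354c*, and *Omd* most like *Sec16b* (0.94), *Adgrg2* and *Itgbl1*. Among the members themselves *Dcn* and *Lum*, neighbours on chromosome 10, had the highest r (0.97), followed by *Bgn* and *Prelp* on different chromosomes (0.95), and *Fmod* and *Podn* the lowest (0.36).

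Among other members of the family, *Chad*, chondroadherin, had 1575 CPM in tenocyte-like cells over both libraries and at most 2.45 CPM in any other class.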
